A study of Mus musculus with 6 samples.

Results

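The 10 interferon-inducible GTPase genes *Gbp2*, *Gbp3*, *Gbp5*, *Gbp7*, *Irgm1*, *Irgm2*, *Igtp*, *Iigp1*, *Ifi47* and *Tgtp1* were taken by name from the 23231 genes with counts, and all 10 passed the low-count filter that left 14378 genes to test. Expression was measured by RNA-Seq in C2C12 cells, mouse myoblasts that form multinucleated myotubes in low serum. Every culture received lentivirus (multiplicity of infection 100), was kept in 2 µg/ml puromycin for selection and was harvested on day 5 in 2% horse serum. The 3 dCas9-KRAB libraries came from cells with the nuclease-dead Cas9 repressor fusion and no enhancer sgRNA, and the 3 dCas9-KRAB-En5 libraries from cells in which the same fusion was directed by sgRNAs to Myog-En5, an enhancer assigned to *Myog*. Both groups are puromycin-selected populations expressing the fusion from a ubiquitin promoter, no untransduced library was analysed here, and whether the replicates were separate transductions is not stated in the sources used here, so p-values measure the spread between these libraries. The comparison asks which transcripts differ when the enhancer is targeted.

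Interferon-inducible GTPases are cell-autonomous defence proteins that vertebrate cells make in response to interferon, above all interferon gamma. Guanylate-binding proteins (GBPs) are large GTPases that assemble on pathogen vacuoles and on bacteria, while immunity-related GTPases (IRGs) are smaller proteins that disrupt vacuole membranes. The IRG group divides into GMS-type regulators (*Irgm1*, *Irgm2* and *Igtp*), which guard the cell's own membranes, and GKS-type effectors (*Iigp1*, *Ifi47* and *Tgtp1*), which the regulators hold inactive. Transcription of both families is switched on through gamma-activated sites and interferon-stimulated response elements in their promoters.

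The members lie in few places of the genome. The 4 GBP genes occupy chr3:142493978-142638008 (GRCm38), *Irgm1*, *Tgtp1* and *Ifi47* occupy chr11:48861968-49096974, *Igtp* and *Irgm2* are neighbours in chr11:58199556-58222782, and *Iigp1* lies on another chromosome. Promoters of 300 bases, from 250 before to 50 after the start of transcription, were available in the RefSeq table of GRCm38.p6 for 9 of the 10 members, with 2 promoters for *Gbp3*. The letters GAAANNGAA, a core of the interferon-stimulated response element, were found on either strand in 8 of these 10 promoters, against 8.56% of 32851 promoters of the same length. The letters TTCNNNGAA, a core of the gamma-activated site, were found in 5 of the 10, against 8.30% of all promoters. The letters CAGCTG, an E-box of the kind bound by myogenic factors, were found in 0 of the 10, against 16.3% of all promoters. The 2 interferon motifs overlapped each other in 0 member promoters, and a match is only a match of letters.

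The windows around the response element matches are shown because GBP and IRG genes from 3 separate clusters share these letters. Each is written 5′ to 3′ on the strand of its gene, and capitals mark the letters of the response element core and, where one falls in the window, of the gamma-activated site core. In the GBP genes the response element core reads on the opposite strand, so its reverse complement is in capitals.
Gbp5, chr3:142496752-142496796, plus strand: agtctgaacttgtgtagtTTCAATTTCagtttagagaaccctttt
Gbp7, chr3:142530266-142530310, plus strand: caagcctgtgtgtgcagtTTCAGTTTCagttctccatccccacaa
Gbp3, chr3:142559982-142560032, plus strand: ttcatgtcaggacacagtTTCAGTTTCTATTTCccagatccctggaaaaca
Gbp2, chr3:142620587-142620631, plus strand: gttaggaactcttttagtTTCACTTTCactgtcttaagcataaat
Irgm1, chr11:48871418-48871468, minus strand: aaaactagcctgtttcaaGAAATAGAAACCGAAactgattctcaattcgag
Tgtp1, chr11:48992297-48992341, minus strand: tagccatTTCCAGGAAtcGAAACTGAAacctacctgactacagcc
Igtp, chr11:58199504-58199548, plus strand: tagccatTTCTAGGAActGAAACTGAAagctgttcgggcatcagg
Irgm2, chr11:58214895-58214939, plus strand: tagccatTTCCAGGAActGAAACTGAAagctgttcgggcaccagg
*Gbp3* and *Irgm1* held 2 overlapping response element matches each. In *Tgtp1*, *Igtp* and *Irgm2* the gamma-activated site core stood upstream of the response element core with 2 bases between them. *Gbp5* and *Gbp7* held 2 gamma-activated site cores each, outside the windows shown. The promoter of *Ifi47* and the other *Gbp3* promoter held neither motif.

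**Figure D1:**
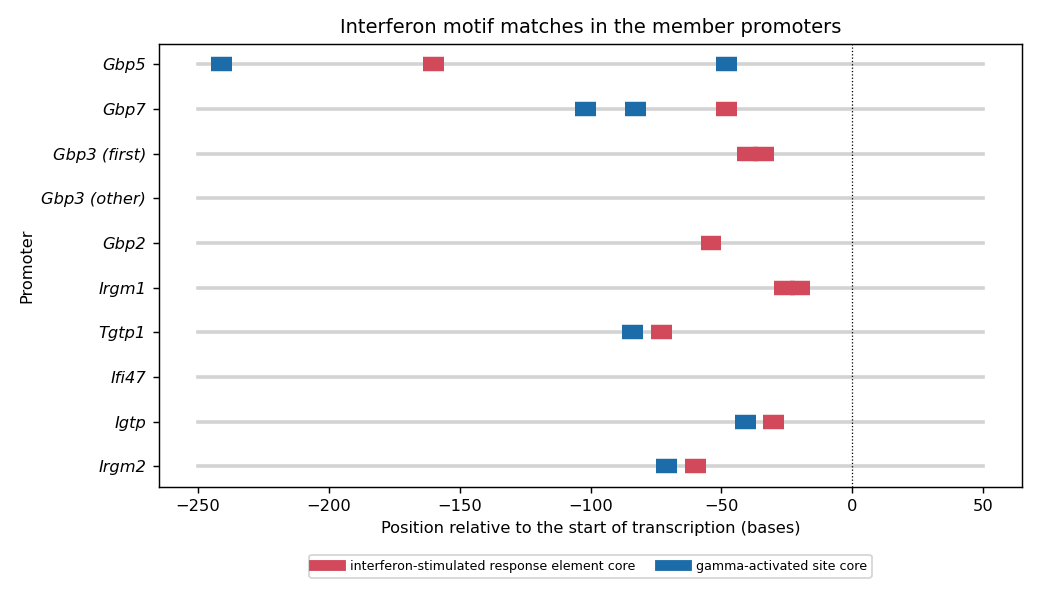
Positions of the 2 interferon motif cores in the 10 promoters of 9 members, in bases from the start of transcription (x axis, grey lines span the 300 bases searched). The first match of *Igtp* begins 45 bases upstream and that of *Gbp5* 245 bases upstream, and 2 promoters hold no match.

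The libraries held 31831093 to 73988425 counts, so that a floor of 3 counts corresponded to 0.0405 to 0.0942 CPM (counts after scaling each library to 1000000). Floors and intervals of this kind cover counting error alone. The check of the labels is *Myog*, whose enhancer was targeted. Its counts were 43211, 68488 and 74845 in the dCas9-KRAB libraries against 12, 0 and 0 in the dCas9-KRAB-En5 libraries, in the direction of the labels. Of 16 muscle markers, 15 reached 10 TPM (length-corrected counts that sum to 1000000 in each library) in each dCas9-KRAB library, whereas in dCas9-KRAB-En5 only *Des* in replicate 3 did, at 13.9 TPM. Of 25 macrophage markers, 15 reached 10 TPM in all 6 libraries, which the label of a myoblast line does not describe. The summed TPM of the macrophage list was 7347 to 9874 in dCas9-KRAB and 14892 to 23123 in dCas9-KRAB-En5. *Mrc1* was at 0 in all libraries, *C1qa* reached at most 0.514 TPM, and 1 of 22 tested markers of the list was called, *Adgre1*, which was higher in dCas9-KRAB-En5, while the replicate block called 2, with *Itgam* (adjusted p = 0.00499). dCas9-KRAB-En5 replicate 3 stood apart, with 13991 genes listed against 17084 to 19395 elsewhere and 25.8% of counts in ribosomal protein genes against 10.8% to 19.4%.

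The interferon-inducible GTPases were expressed at lower levels when Myog-En5 was targeted. A gene was called where edgeR's quasi-likelihood test gave an adjusted p up to 0.01 and a log2 fold change of 1 or more in size. Of the 10 members, 8 were called lower and 0 higher, whereas 4.67% of all tested genes were called lower and 1.52% higher. The median log2 fold change of the members was -4.46, and that of all tested genes was 0.08. In all 10 members every dCas9-KRAB-En5 library had a lower TPM than every dCas9-KRAB library, which held for 19.7% of tested genes. *Gbp3*, *Gbp5*, *Gbp7*, *Iigp1* and *Tgtp1* had fewer than 10 counts in some or all dCas9-KRAB-En5 libraries. They passed the low-count filter through dCas9-KRAB alone, so their direction was largely fixed in advance. With 10 counts or more required in all libraries, 5 members were tested and 5 were called lower, against 339 of 11640 genes. The exact two-sided permutation test on log2(TPM + 1) gave p = 0.1 for each of the 10 genes, the smallest that the 20 splits of 3 against 3 libraries allow. The members' summed TPM was 84.1, 155 and 129 in dCas9-KRAB and 9.65, 10.0 and 4.28 in dCas9-KRAB-En5. In bulk RNA, fewer cells that express these genes and less RNA per cell cannot be told apart.

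**Figure D2:**
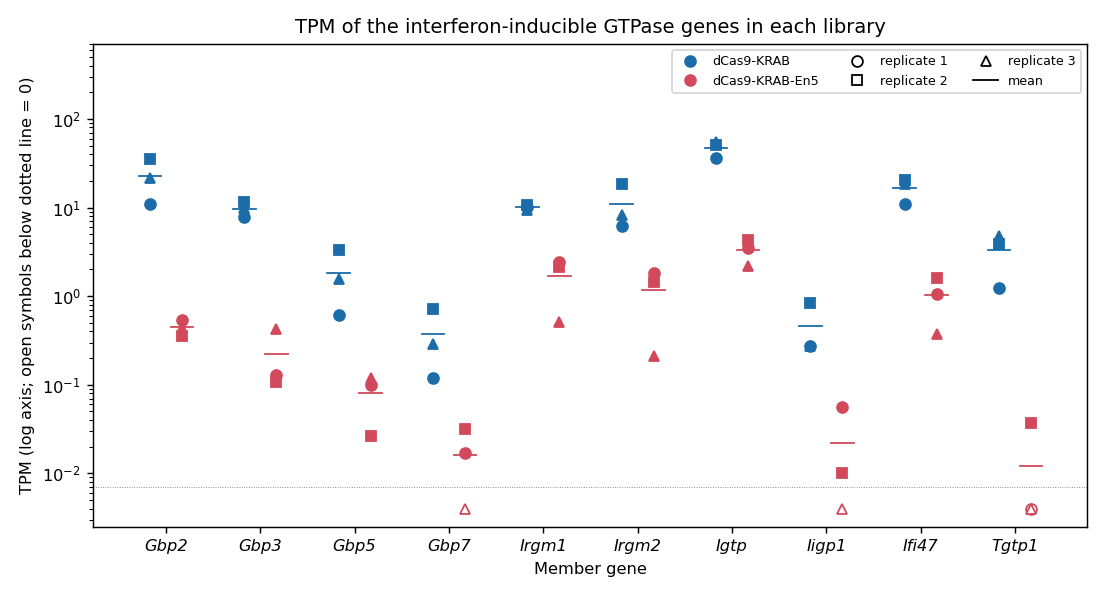
TPM of the 10 members in the 3 dCas9-KRAB (blue) and 3 dCas9-KRAB-En5 (red) libraries, on a log axis, with symbols for replicates, short lines for group means and open symbols for a TPM of 0. The groups do not overlap for any member, and *Igtp* was the most abundant in both, with a mean of 47.1 against 3.32 TPM.

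*Gbp2*, a GBP that coats pathogen vacuoles and is anchored to membranes by a lipid tail, had 10.8, 35.2 and 21.7 TPM in dCas9-KRAB replicates 1 to 3. It had 0.544, 0.352 and 0.434 TPM in dCas9-KRAB-En5 replicates 1 to 3. The highest dCas9-KRAB-En5 library thus lay well below the lowest dCas9-KRAB library, although the dCas9-KRAB values themselves spread widely. *Gbp2* fell by 5.67 on the log2 scale (SE 0.66, adjusted p = 0.000243, edgeR), or 50.8-fold. *Gbp3*, a close relative in the same cluster, had 7.87, 11.5 and 9.79 TPM against 0.130, 0.108 and 0.428 TPM. Its dCas9-KRAB libraries were close to each other, and replicate 3 was the high one of the dCas9-KRAB-En5 libraries. It fell by 5.17 (SE 0.86, adjusted p = 0.0026), and the log2 fold change was -6.93 without dCas9-KRAB-En5 replicate 3.

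*Gbp5*, known as a promoter of inflammasome assembly, was less abundant, with 0.605, 3.34 and 1.57 TPM in dCas9-KRAB and 0.0996, 0.0267 and 0.119 TPM in dCas9-KRAB-En5. Replicate 2 of dCas9-KRAB was the highest, and the dCas9-KRAB-En5 values rested on 14, 3 and 18 counts. It fell by 4.29 on the log2 scale (SE 0.91, adjusted p = 0.00912), close to the cutoff, and the adjusted p lay between 0.00139 and 0.0506 when single libraries were left out. *Gbp7*, implicated in assembling the phagocyte oxidase on vacuoles, had 0.118, 0.709 and 0.286 TPM in dCas9-KRAB and 0.0168, 0.0315 and 0 TPM in dCas9-KRAB-En5. The groups did not overlap, but the dCas9-KRAB-En5 values rested on 2, 3 and 0 counts. Its estimate was -4.80 (SE 1.17) at an adjusted p of 0.0179, which missed the cutoff, and the ratio of pooled CPM was 28.3 with a 95% counting interval of 12.0 to 88.1. Of the 50-base words of the *Gbp7* exons, 12.7% also occur in other genes, mainly in the overlapping *Gm43802*, so its counts are uncertain.

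Among the GMS-type regulators, *Igtp* (Irgm3), which keeps effector IRGs off host membranes, had 36.1, 50.4 and 54.8 TPM in dCas9-KRAB and 3.50, 4.26 and 2.2 TPM in dCas9-KRAB-En5. Replicates lay close together in both groups. *Igtp* fell by 4.0 (SE 0.46, adjusted p = 0.000243), the smallest SE of the 10 members. *Irgm1*, which also acts in autophagy and on mitochondria, had 10.1, 10.6 and 9.49 TPM against 2.40, 2.11 and 0.511 TPM. The dCas9-KRAB libraries were nearly level, and replicate 3 was the lowest of the dCas9-KRAB-En5 libraries. *Irgm1* fell by 2.93 (SE 0.47, adjusted p = 0.00213), the smallest change of the 10. *Irgm2*, a regulator found at the Golgi, had 6.13, 18.6 and 8.30 TPM against 1.83, 1.44 and 0.213 TPM, with replicate 2 the high library in dCas9-KRAB. It fell by 3.59 (SE 0.63, adjusted p = 0.00368). *Igtp* and *Irgm2* share 162 exon bases on the same strand, which is 8.01% of the exon bases of *Igtp*, and the sources used here do not say how reads in shared bases were assigned.

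Among the GKS-type effectors, *Ifi47* (Irgd) had 10.8, 20.5 and 18.4 TPM in dCas9-KRAB and 1.07, 1.62 and 0.371 TPM in dCas9-KRAB-En5. The groups lay far apart. *Ifi47* fell by 4.34 (SE 0.53, adjusted p = 0.000333), and its promoter window held neither interferon motif. *Tgtp1* (Irgb6), an effector that binds the vacuole membrane, had 1.24, 3.92 and 4.77 TPM against 0, 0.0368 and 0 TPM, that is 108, 470 and 684 counts against 0, 2 and 0. It was the member closest to absent in dCas9-KRAB-En5. Its estimate of -8.35 (SE 1.10, adjusted p = 0.000556) depends on the prior used for zeros, and the ratio of pooled CPM was 374 with a 95% counting interval of 103 to 3093. Because 79.4% of the 50-base words of *Tgtp1* also occur in *Tgtp2*, reads of these near-identical genes may be shared between them or lost. *Iigp1* (Irga6), the best studied effector of vacuole disruption, had 0.272, 0.835 and 0.276 TPM against 0.0567, 0.0101 and 0 TPM, on 43, 182 and 72 counts against 7, 1 and 0. The groups did not overlap, but the estimate of -4.58 (SE 1.14) had an adjusted p of 0.0196 and was not called. Its ratio of pooled CPM was 22 with a 95% counting interval of 11 to 51.5.

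**Figure D3:**
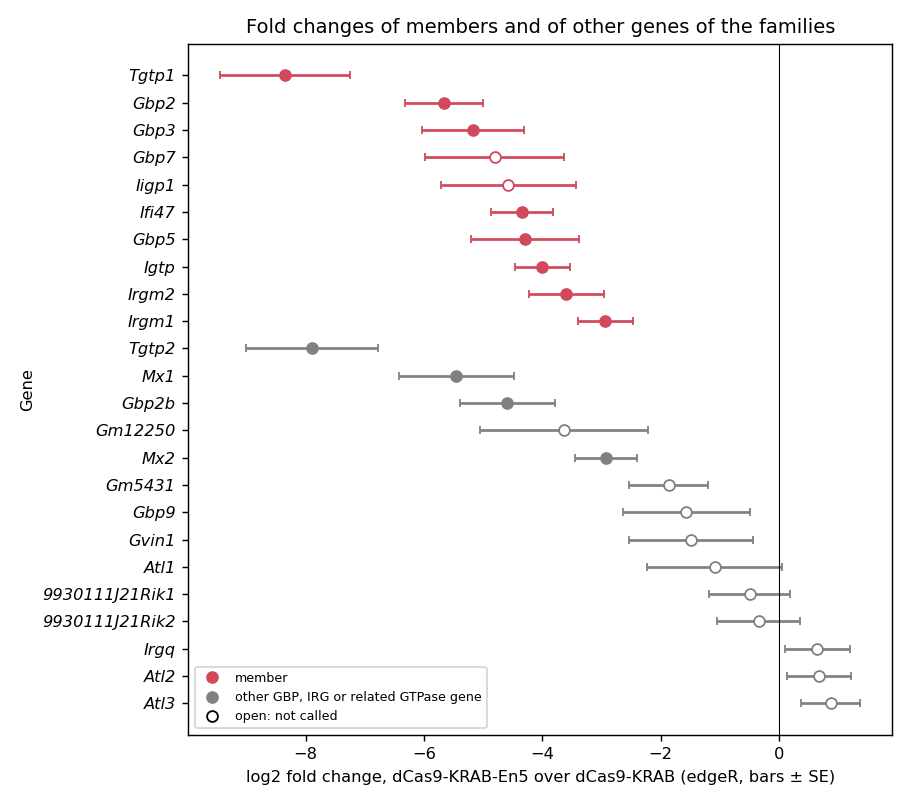
Log2 fold changes of dCas9-KRAB-En5 over dCas9-KRAB (edgeR, bars ± SE) for the 10 members (red) and the 14 tested genes of the other family list (grey), with open circles for genes not called. All 10 members lie below 0, from -2.93 for *Irgm1* to -8.35 for *Tgtp1*. The other genes range from -7.89 for *Tgtp2* to 0.87 for *Atl3*, with 11 of the 14 below 0.

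The 4 calls of *Gbp2*, *Igtp*, *Ifi47* and *Tgtp1* held in each alternative fit in which the gene was tested, which was 14 of 14 for the first 3 genes and 13 of 13 for *Tgtp1*. The other 4 calls rested more on single libraries. Without dCas9-KRAB replicate 1, 4 members were called lower against 1.43% of all genes, and without dCas9-KRAB replicate 2 also 4, against 2.02%. Without dCas9-KRAB-En5 replicate 3, which stood apart, all 10 were called lower, against 14.0% of all genes. With the replicate number as a block 8 were called lower (6.79% of all genes), and with DESeq2 all 10 (8.66% of all genes).

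By mean TPM, the order in dCas9-KRAB was *Igtp* (47.1 ± 9.78, SD, n = 3), *Gbp2* (22.6 ± 12.2), *Ifi47* (16.6 ± 5.09), *Irgm2* (11 ± 6.65), *Irgm1* (10.1 ± 0.546) and *Gbp3* (9.71 ± 1.80). *Tgtp1*, *Gbp5*, *Iigp1* and *Gbp7* followed, from 3.31 ± 1.84 to 0.371 ± 0.304. Only *Igtp* over *Gbp2* and *Gbp3* over *Tgtp1* were neighbours with separate ranges. In dCas9-KRAB-En5 the order was *Igtp* (3.32 ± 1.04), *Irgm1* (1.68 ± 1.02), *Irgm2* (1.16 ± 0.843), *Ifi47* (1.02 ± 0.627), *Gbp2* (0.443 ± 0.0965) and *Gbp3* (0.222 ± 0.179), and the ranges of all neighbours overlapped. Grouped after the values were seen, the GBP members summed to 0.371 to 0.637 of the GMS-type members in dCas9-KRAB and to 0.0664 to 0.335 in dCas9-KRAB-En5. *Irgm1* and *Irgm2* together made up a larger mean share of the members' TPM in dCas9-KRAB-En5, with 19.3% and 12.8% against 8.72% and 8.55%, but the groups overlapped for both genes, since dCas9-KRAB-En5 replicate 3 had 11.9% *Irgm1* and 4.98% *Irgm2*.

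The other GBP, IRG and related GTPase genes had mostly negative estimates. Of 25 names, 21 were found in the annotation and 14 were tested, of which 4 were called lower and 0 higher (median log2 fold change -1.53). Over all tested genes 4.67% were called lower and 1.52% higher. Estimates were below 0 for 11 of the 14, and above 0 for *Atl2* (0.67), *Atl3* (0.87) and *Irgq* (0.65), which were not called. *Tgtp2*, the near-copy of *Tgtp1*, had 2.04, 7.78 and 8.35 TPM against 0, 0.1004 and 0 TPM and an estimate of -7.89 (adjusted p = 0.000869). *Gbp2b* (Gbp1), a relative of *Gbp2*, had 3.64, 8.08 and 6.34 TPM against 0.368, 0.0627 and 0.279 TPM and fell by 4.59 (SE 0.81, adjusted p = 0.00364). *Tgtp2* and *Gbp2b* (3 counts in dCas9-KRAB-En5 replicate 2) passed the low-count filter through dCas9-KRAB alone, so their direction was largely fixed in advance. With 10 counts or more required in all libraries, 7 genes of this list were tested and 1 was called lower. *Mx1* and *Mx2*, dynamin-like GTPases that block viruses, fell by 5.45 (SE 0.96, adjusted p = 0.00375) and 2.92 (SE 0.53, adjusted p = 0.00422). *Gm5431* had 1.45, 1.18 and 1.31 TPM against 0.391, 0.901 and 0.136 TPM and was not called (adjusted p = 0.073). The replicate block called 5, with *Gm12250* (adjusted p = 0.00921, against 0.0971 without the block). Without dCas9-KRAB replicate 1 or 2, 1 of these genes was called lower (1.43% and 2.02% of all genes). Without dCas9-KRAB-En5 replicate 3, 5 were called lower (14.0% of all genes).

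Interferon genes themselves were hardly detected. *Ifng*, which encodes interferon gamma, had 4 counts in dCas9-KRAB replicate 1 and 0 in the other libraries. *Ifnb1*, another interferon gene, had 5, 2 and 13 counts in dCas9-KRAB against 0, 0 and 0 in dCas9-KRAB-En5. *Ifng* and *Ifnb1* did not pass the low-count filter and were not tested. Of 15 ligand genes 4 were tested and 1 was called lower, against 4.67% of all tested genes. This was *Il12a*, a subunit of the interferon-gamma-inducing cytokine IL-12, with 123, 641 and 451 counts against 0, 1 and 0 (adjusted p = 0.000255, edgeR). *Il12a* passed the low-count filter through dCas9-KRAB alone, so its direction was fixed in advance. *Tnf*, an inflammatory cytokine, had 13.4, 27.1 and 38.7 TPM against 265, 137 and 60.1 TPM, higher in all 3 dCas9-KRAB-En5 libraries, at an adjusted p of 0.017 that missed the cutoff. With the replicate block *Tnf* was called at an adjusted p of 0.00936, and with DESeq2 at 0.000867. *Il27* and *Il18* had estimates of -1.10 (SE 0.79) and 0.03 (SE 0.58) and were not called. T and NK cell markers, which mark the usual source of interferon gamma, were at 0 in all libraries for 9 of 15 genes and reached 10 TPM for 0. The list's summed TPM was 8.51 to 11.1 in dCas9-KRAB and 3.24 to 5.25 in dCas9-KRAB-En5. All 3 tested genes were lower with separate groups, which held for 19.7% of all tested genes. Of these 3, *Zap70* was called (adjusted p = 0.00759, and 0.0108 with the replicate block, which lost the call). *Zap70* and *Trac* were at 0 in all dCas9-KRAB-En5 libraries. They passed the low-count filter through dCas9-KRAB alone, so their direction was fixed in advance.

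Of 25 receptor and signalling genes, 24 were tested, 3 were called lower and 1 higher, with a median of 0.15. Over all tested genes 4.67% were called lower and 1.52% higher, with a median of 0.08. *Irf7* and *Irf9*, interferon response factors, fell by 2.96 (SE 0.59, adjusted p = 0.00714) and 2.13 (SE 0.43, adjusted p = 0.00731), and *Usp18*, a brake on type I interferon signalling, fell by 2.91 (SE 0.50, adjusted p = 0.00313). *Socs3*, a suppressor of cytokine signalling, had 15.1, 65.5 and 58.8 TPM against 1109, 532 and 185 TPM and rose by 3.41 (SE 0.68, adjusted p = 0.00656). The receptor subunits *Ifngr1* and *Ifngr2* had estimates of 0.33 (SE 0.44) and 0.39 (SE 0.40) and overlapping groups. *Irf1* had -1.44 (SE 0.45, adjusted p = 0.047) and *Irf8* 0.06 (SE 0.50, adjusted p = 0.945), and *Jak2* had 2.62 (SE 0.76, adjusted p = 0.035), none of them called by edgeR. DESeq2 called *Jak2* higher (adjusted p = 0.00348).

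All 56 other interferon target genes were tested, and 15 were called lower and 0 higher, with a median of -2.01 and 53 estimates below 0. Over all 14378 tested genes 4.67% were called lower and 1.52% higher, and 6856 estimates were below 0. The replicate block called 23 of the targets lower (6.79% of all genes) and DESeq2 26 (8.66%). *Cxcl9*, a chemokine induced by interferon gamma, had 989, 1567 and 1772 counts against 0, 0 and 0, at least 283-fold higher in dCas9-KRAB against a floor of 3 counts per library. *Cxcl9* passed the low-count filter through dCas9-KRAB alone, so its direction was fixed in advance. *Ifit3*, an antiviral RNA-binding protein, had 104, 163 and 201 TPM against 0.595, 0.203 and 0.927 TPM. It fell by 7.90 (SE 0.90, adjusted p = 0.000217). With 6 counts in dCas9-KRAB-En5 replicate 2, *Ifit3* too passed the filter through dCas9-KRAB alone. *Zbp1*, a nucleic acid sensor, *Oasl2*, of the OAS family, and *Xaf1*, a pro-apoptotic factor, fell by 4.84, 5.25 and 4.46 (SE 0.59, 0.66 and 0.58). The list's summed TPM was 18198 to 21127 against 6699 to 7551. Much of this sum came from *Ifi27l2a* (mean 7082 against 1408 TPM, edgeR adjusted p = 0.092) and *Bst2* (3788 against 700 TPM, adjusted p = 0.015). Neither was called, but both were with the replicate block (adjusted p = 0.00698 and 0.00146).

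Of the proteins that target or mark vacuoles, 19 were tested and 2 were called lower. Over all 14378 tested genes 4.67% were called lower and 1.52% higher, and 4733 had an unadjusted p under 0.05 (edgeR). The 2 were *Map1lc3a*, an LC3 protein of autophagy, with 1398, 1512 and 1435 TPM against 67.8, 61.0 and 89.4 TPM (-4.23, SE 0.63, adjusted p = 0.00129), and *Lgals9*, a galectin (-2.91, SE 0.60, adjusted p = 0.00811). *Pim1*, a kinase known to restrain GBP1, had 3.16, 13.0 and 11.5 TPM against 153, 133 and 11.6 TPM with overlapping groups, and was not called (adjusted p = 0.0161). *Trim21* and *Atg12* had estimates of -2.28 (SE 0.66) and 1.06 (SE 0.49) and were not called by edgeR. DESeq2 called 3 of this list lower and 1 higher, adding *Trim21* as lower (adjusted p = 0.00163) and *Pim1* as higher (adjusted p = 0.000188). Over all genes DESeq2 called 8.66% lower. Of 12 tested inflammasome genes 0 were called by edgeR, while 1 had an unadjusted p under 0.05. DESeq2 called 1 of them, *Aim2*, a DNA sensor, which edgeR put at 2.31 (SE 0.57, adjusted p = 0.0188) and, with the replicate block, at an adjusted p of 0.00565. *Casp4*, *Nlrp3* and *Il1b* had estimates of -0.99 (SE 0.58), 1.10 (SE 0.62) and 2.40 (SE 1.11) and were not called. Of the 6 prenylation genes, whose enzymes attach and process the lipid tails of GBPs, 0 were called by edgeR and 0 by DESeq2, and 1, *Icmt*, had an unadjusted p under 0.05 in edgeR, and *Icmt*, *Fntb*, *Rce1*, *Pggt1b* and *Zmpste24* had estimates between -0.75 and 1.35. Over these pathway lists together, 119 genes were tested and 21 called lower and 1 higher, against 4.67% and 1.52% of all genes. With the replicate block 29 were lower and 3 higher, against 6.79% and 567 of 14378. Without dCas9-KRAB replicate 1 the lower count was 11 (1.43% of all genes), and without dCas9-KRAB replicate 2 it was 9 (2.02%). Without dCas9-KRAB-En5 replicate 3 it was 38 (14.0%), with 9 higher (1787 of 15265 genes). With 10 counts or more required in all libraries, 107 were tested and 16 called lower, against 339 of 11640 genes.

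**Figure D4:**
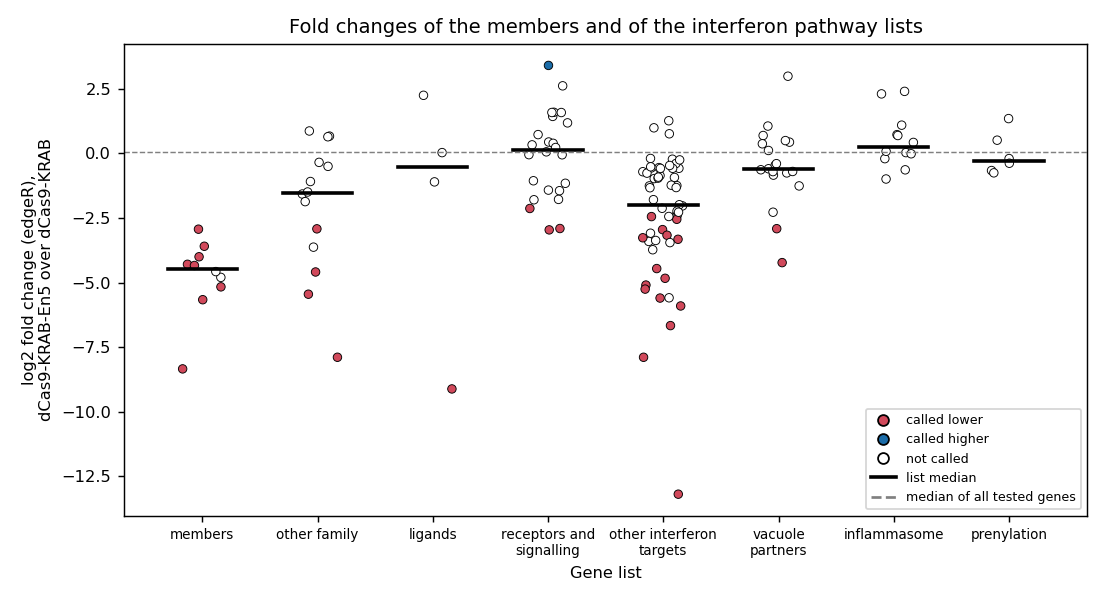
Log2 fold changes (edgeR, dCas9-KRAB-En5 over dCas9-KRAB) of each tested gene of the members and 7 pathway or family lists, with thick lines for list medians and a dashed line for the median of all tested genes (0.08). The members have a median of -4.46, the other interferon targets -2.01 and the receptors and signalling genes 0.15.

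Genes outside the family shared the members' profile over the 6 libraries. By the root mean square difference of centred log2 CPM from the median member profile, over 12234 genes compared, the 5 nearest genes were *Flnc* (0.229), *Adgre5* (0.231), *Hspb1* (0.280), *Adamtsl1* (0.282) and *Mtss1l* (0.323). The members lay between 0.333 (*Ifi47*) and 1.25 (*Tgtp1*). *Flnc* encodes a muscle filamin and *Hspb1* a small heat shock protein. The log2 fold changes of the 5 ranged from -4.38 to -4.65. Their nearness to the members' median follows from the choice by profile and is no separate result.

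**Figure D5:**
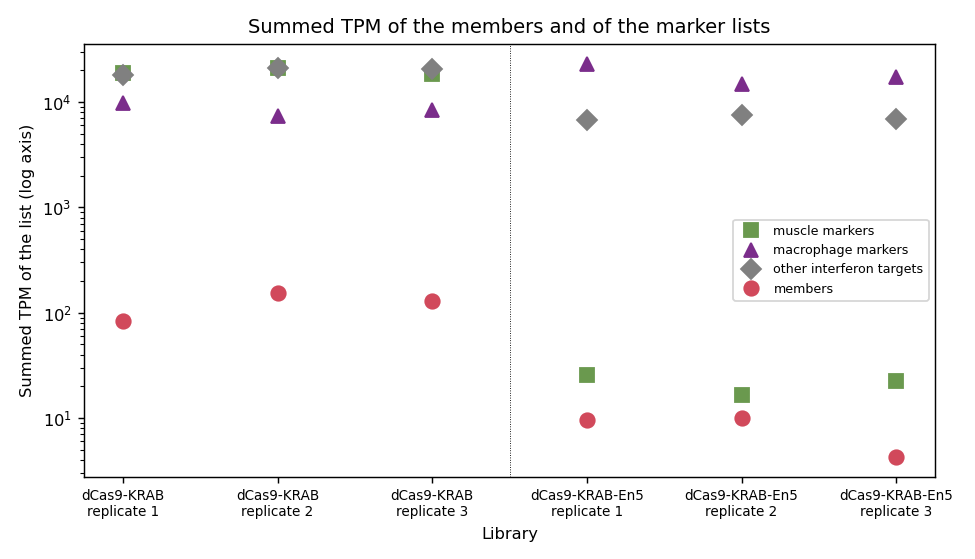
Summed TPM of the members, the other interferon targets, the macrophage markers and the muscle markers in each library (log axis). The members' sum lies between 84.1 and 155 in dCas9-KRAB and between 4.28 and 10.0 in dCas9-KRAB-En5, the muscle sum falls from at least 18245 to at most 25.8, and the macrophage sum is higher in each dCas9-KRAB-En5 library.

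The members and the muscle markers were both lower in dCas9-KRAB-En5, while the other cell type lists differed in direction. Over all tested genes 4.67% were called lower and 1.52% higher. The muscle list, of which 15 of 16 genes were called lower and 16 with the replicate block, summed to 18245 to 21164 TPM in dCas9-KRAB and 16.5 to 25.8 in dCas9-KRAB-En5. The summed TPM of the macrophage list was higher in dCas9-KRAB-En5, but its genes were divided. Estimates were below 0 for 7 of the 22 tested, against 6856 of all 14378 tested genes. With separate groups, 3 were lower and 4 higher in dCas9-KRAB-En5. Over all tested genes 19.7% were lower and 1116 of 14378 were higher with separate groups. Of the fibroblast markers 2 of 9 tested were called lower, *Col1a1* (-3.65, SE 0.71, adjusted p = 0.0062) and *Dpt*, and 4 with the replicate block. The fibroblast list's summed TPM overlapped between the groups, from 221 to 591 in dCas9-KRAB and from 257 to 1160 in dCas9-KRAB-En5. By gene, however, estimates were below 0 for 7 of the 9 tested, and 4 were lower with separate groups, against 19.7% of all tested genes. *Pdgfra* (0.53) and *Vim* (1.16) were above 0 and not called. Of the B cell markers 1 of 3 tested was called lower, *Pax5* (adjusted p = 0.00821), and the list summed to 165 to 214 against 58.3 to 168 TPM. *Dpt* and *Pax5* were at 0 in all dCas9-KRAB-En5 libraries and passed the low-count filter through dCas9-KRAB alone, so their direction was fixed in advance. Of the endothelial markers 2 were tested and 0 called by edgeR or DESeq2, while 1 had an unadjusted p under 0.05 in edgeR. The part of these cell type markers in the members' difference was not tested.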

How the data were processed

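RNA-Seq of 6 libraries of C2C12 cells was used, grouped by the genotype label. The authors aligned the reads with HISAT2 2.2.1 to GRCm38, used featureCounts for gene counts, and deposited raw counts together with TPM (counts per gene length, scaled to 1000000 per library). Strand setting and annotation release are not given in the sources used here. Genes missing from a library's list were taken as 0, and 23155 of 23231 genes matched a GENCODE symbol.

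The deposited counts were fitted with edgeR 4.0.16 in R 4.3.3 (TMM, filterByExpr with minimum count 10 and minimum total count 15, quasi-likelihood test, group alone, Benjamini-Hochberg adjustment over 14378 genes). DESeq2 1.42.0 was an alternative, as was limma 3.58.1 with TPM on a log2 scale after adding 1 or 0.1, besides other scalings, filters, cutoffs, the replicate block and leaving out each library. The fit was tested on simulated data, and its power was low for smaller changes. The first simulation, with a log2 fold change of 2 and a common dispersion, recovered no changed gene, and larger changes were simulated only after that. Genes not called are therefore not described as unchanged. Counting intervals are exact at 95%. Same-numbered libraries of the 2 groups deviated together (correlations 0.214 to 0.290, from the replicate numbers in the labels and the data), so the replicate block is given where it changes a list's count or the call of a named gene.

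The members and gene lists were chosen with earlier results of these data known. Besides all members, the named genes are the up to 5 with the smallest edgeR adjusted p of each list, *Ifng*, its receptors, *Irf1*, *Irf8*, *Irf9*, *Myog*, and the 5 genes with the profile nearest to the members. Some cell type markers, *Ifnb1*, and genes that set a list's sum, range or change of calls, were named outside this rule. Some genes that this rule names are not reported here.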

Additional observations from a re-analysis of the deposited data

How the results depend on the processing

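Over all genes 890 were called (671 lower, 219 higher). The count was 2390 with DESeq2, 586 with total counts only (516 lower, 70 higher), 2198 with no filter on low counts (1194 lower, 1004 higher), 544 where all libraries had 10 counts or more (339 lower, 205 higher), 1543 with the replicate block, 514 with limma on log2(TPM + 1), 2449 with an adjusted p cutoff of 0.05, and 222 to 3921 with single libraries left out. Members called lower were 8, and 5 each with total counts only, with 10 counts or more in all libraries (5 tested), and with limma on either TPM scale, and 4 to 10 with single libraries left out. Other family genes called were 4, and 2 with total counts only, 1 with 10 counts or more in all libraries, 2 with limma on log2(TPM + 1), and 1 to 5 with single libraries left out. Interferon pathway genes called lower were 21, and 32 with DESeq2, 33 with the cutoff of 0.05, and 9 to 38 with single libraries left out. The replicate block changed no call of a member. No member reversed its direction in these fits. A scaling to the macrophage marker sum was added after seeing the data but could only widen the difference, so it is not used. The cause of these differences between settings was not tested, beyond fewer genes tested with the stricter filter. Few counts limit *Gbp7*, *Iigp1* and *Tgtp1* in dCas9-KRAB-En5.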
